A study of Mus musculus with 12 samples.

Results

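The regions described here belong to PXR and CAR, the drug-sensing nuclear receptors of the liver, and to the proteins they work with. Their genes are Nr1i2 (PXR), Nr1i3 (CAR), Rxra, Ncoa1, Ncor1, Por and Alas1. They were chosen by gene symbol for promoters, which gave 15 of 43511 promoter rows, and by position for enhancers. Every enhancer row within 20 kb of the annotated gene Nr1i2, Nr1i3 or Alas1 was taken, which gave 112 of 406518 rows. In all, 127 of 450029 regions and 7 of 25124 gene symbols were members. The rule uses gene names and positions, and the genes were picked with earlier results of these data known.

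Open chromatin of the liver was profiled by ATAC-seq, in which a transposase cuts and tags accessible DNA. The mice were wild-type C57BL/6N males, 19 to 20 weeks old, on standard chow, fasted for 12 h when the liver was taken, with 9 to 10 mice in a group. They had received by gavage on 4 days 100 mg/kg pregnenolone 16α-carbonitrile (PCN), 10 mg/kg atorvastatin, or distilled water as vehicle, here called control. Each group had 4 libraries, and the labels do not say whether each came from a different mouse, so the p-values rest on the variation among these libraries, which may be technical. PCN is an agonist of mouse PXR, and atorvastatin is a cholesterol-lowering inhibitor of HMG-CoA reductase. All groups shared the genotype, strain, sex, diet and fasting, and no receptor was deleted in any of them.

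PXR and CAR bind DNA as heterodimers with the retinoid X receptor RXRα at repeats of a short half-site, AGGTCA or its variant AGTTCA. CAR waits in the cytoplasm of hepatocytes, bound to chaperones, until a ligand or a signal releases it to the nucleus. Once bound to DNA, the receptors exchange corepressors such as NCOR1 for coactivators such as NCOA1, and genes of cytochrome P450 enzymes, conjugating enzymes and transporters are transcribed. The P450 enzymes need heme, whose synthesis starts with ALAS1, and electrons, which POR delivers. In mouse, Por and Alas1 are known to respond to PXR and CAR ligands.

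The start sites of the receptors and of the genes with alternative promoters are shown first, because the counts at these starts are described below. Each run holds 250 bases before and 50 bases after a start site, 5′ to 3′, from RefSeq on GRCm38.p6, the assembly of the deposited coordinates (mm10). Capitals mark matches on either strand to the receptor half-sites AGGTCA or AGTTCA, to the GC box GGGCGG, the CCAAT box (CCAAT), the TATA box (TATAAA), the E-box CACGTG, or the run GCATGC, and no match overlapped another. The windows lie at chr16:38294775-38295074 on the minus strand (Nr1i2), chr1:171213720-171214019 on the plus strand (Nr1i3), chr2:27676951-27677250 and chr2:27709042-27709341 on the plus strand (Rxra), chr11:62438466-62438765 and chr11:62457283-62457582 on the minus strand (Ncor1), and chr9:106247681-106247980 on the minus strand (Alas1).
Nr1i2: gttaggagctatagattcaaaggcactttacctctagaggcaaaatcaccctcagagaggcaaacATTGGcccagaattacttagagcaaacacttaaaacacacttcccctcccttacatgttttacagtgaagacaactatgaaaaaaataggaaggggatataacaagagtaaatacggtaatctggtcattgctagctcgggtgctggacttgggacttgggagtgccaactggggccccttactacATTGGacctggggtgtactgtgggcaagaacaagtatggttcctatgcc
Nr1i3: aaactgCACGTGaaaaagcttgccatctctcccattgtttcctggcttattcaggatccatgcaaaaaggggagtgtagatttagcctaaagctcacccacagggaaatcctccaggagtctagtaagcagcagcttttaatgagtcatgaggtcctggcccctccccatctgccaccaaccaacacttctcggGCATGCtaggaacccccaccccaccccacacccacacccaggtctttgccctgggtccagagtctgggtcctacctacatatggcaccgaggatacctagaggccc
Rxra window 1: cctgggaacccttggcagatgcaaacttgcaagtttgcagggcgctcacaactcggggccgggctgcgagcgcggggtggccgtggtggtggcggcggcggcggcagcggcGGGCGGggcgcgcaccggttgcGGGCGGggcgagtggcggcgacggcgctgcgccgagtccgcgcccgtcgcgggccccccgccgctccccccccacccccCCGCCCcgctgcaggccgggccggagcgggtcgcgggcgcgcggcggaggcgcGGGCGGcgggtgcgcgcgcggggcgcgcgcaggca
Rxra window 2: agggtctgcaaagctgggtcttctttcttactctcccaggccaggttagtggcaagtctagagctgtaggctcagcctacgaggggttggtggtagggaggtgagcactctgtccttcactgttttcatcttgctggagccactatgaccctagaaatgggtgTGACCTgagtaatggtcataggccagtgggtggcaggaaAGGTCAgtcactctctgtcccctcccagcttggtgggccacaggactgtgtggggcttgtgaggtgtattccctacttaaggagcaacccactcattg
Ncor1 window 1: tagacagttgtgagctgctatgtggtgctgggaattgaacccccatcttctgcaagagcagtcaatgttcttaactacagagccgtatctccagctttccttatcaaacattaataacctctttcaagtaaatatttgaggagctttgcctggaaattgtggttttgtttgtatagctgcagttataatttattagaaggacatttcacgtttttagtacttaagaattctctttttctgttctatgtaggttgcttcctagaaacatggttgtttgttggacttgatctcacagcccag
Ncor1 window 2: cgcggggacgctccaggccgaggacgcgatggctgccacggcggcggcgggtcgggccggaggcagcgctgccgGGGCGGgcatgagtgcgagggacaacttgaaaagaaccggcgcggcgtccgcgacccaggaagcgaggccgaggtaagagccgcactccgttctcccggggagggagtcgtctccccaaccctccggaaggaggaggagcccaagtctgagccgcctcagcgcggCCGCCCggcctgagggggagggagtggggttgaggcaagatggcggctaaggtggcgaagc
Alas1 window 1: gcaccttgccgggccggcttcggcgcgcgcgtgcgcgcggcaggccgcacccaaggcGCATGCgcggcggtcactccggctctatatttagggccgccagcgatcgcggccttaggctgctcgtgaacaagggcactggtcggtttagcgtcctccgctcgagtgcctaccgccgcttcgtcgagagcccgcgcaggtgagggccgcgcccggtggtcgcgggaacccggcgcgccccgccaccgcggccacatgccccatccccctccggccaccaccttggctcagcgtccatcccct

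The receptor windows were poor in CpG. The Nr1i2 window had 45.3% GC and 2 CpG, with 2 matches to CCAAT, a motif found in 37.4% of 32851 RefSeq windows. The Nr1i3 window had 54.0% GC, 3 CpG, 1 match to CACGTG (7.15% of windows) and 1 match to GCATGC (7.93%). The median of all windows was 52.7% GC and 7 CpG.

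Both genes with widely separated start sites paired a CpG-rich window with a CpG-poor one. Rxra window 1 had 83.0% GC, 55 CpG and 4 matches to GGGCGG (35.7% of windows), and window 2, 32.1 kb downstream, had 54.3% GC, 1 CpG and 2 matches to AGGTCA (16.3% of windows). The AGGTCA matches began 87 and 48 bases before the start. Ncor1 window 2 had 72.3% GC and 36 CpG and lies 18.8 kb upstream of window 1, which had 38.3% GC, 2 CpG and no match. The Alas1 window shown had 73.3% GC, 44 CpG and 1 match to GCATGC. A second Alas1 window, 224 bases upstream, overlaps it and contained the same match, and neither held a receptor half-site. The windows of Ncoa1 and Por, not shown, had 84.7% and 67.3% GC. A match is a run of letters and no evidence of binding, and the reference table does not say which window belongs to which transcript row.

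All 15 promoter rows passed the filter on low counts, and 11 of them held distinct counts. Nr1i2 had 2 rows with the same counts, Nr1i3 had 3, and of the 3 Ncor1 rows 2 were the same, so each such set is given once. Values are normalised CPM, the count divided by the scaled library total and given per 1000000. Widths of promoter rows were not given in the sources used here, so CPM is compared between groups at a promoter and not between promoters. The row with the highest mean CPM stands for each gene and is called its most open promoter.

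Total counts per library ran between 1679054 and 15336000.5 in the promoter table and between 1256648.5 and 13078975.5 in the enhancer table, the shallowest being control 4. Control 3 and atorvastatin 3 stood apart. Their median correlation with the other libraries across promoters was 0.698 and 0.744, against 0.897 to 0.966 for the other 10 libraries, and across enhancers 0.294 and 0.338, against 0.502 to 0.714. Log2 fold changes are therefore mostly given both for all 12 libraries and for the 10 without these 2. Summed promoter counts of 8 hepatocyte markers were 286 to 412 CPM in PCN, 225 to 424 CPM in atorvastatin and 177 to 358 CPM in control libraries, with control 3 the lowest. Those of 6 stellate cell markers were 36.1 to 59.1, 38.9 to 73.2 and 54.4 to 87.5 CPM, and those of 6 Kupffer cell markers 26.7 to 44.0, 21.8 to 66.1 and 23.3 to 84.9 CPM, in that order of groups. No marker on these lists was at 0 in all libraries. With PCN against control 6 of 8 hepatocyte, 1 of 6 Kupffer cell, 0 of 6 stellate cell and 0 of 6 endothelial markers had a log2 fold change above 0 (medians 0.30, -0.45, -0.44 and -0.35). In 10 libraries the counts were 6, 2, 0 and 0 (medians 0.13, -0.075, -0.40 and -0.34). In bulk liver, fewer cells of a type and less open chromatin per cell cannot be told apart, and the part of cell mixture in the results below was not tested.

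No member passed the test in any comparison. With edgeR (quasi-likelihood test, Benjamini-Hochberg adjustment over the 41908 promoters tested), 0 of the 7 most open promoters were called with PCN against control, where 0.0% of all promoters were called. The same held for atorvastatin against control (0.0% called) and for PCN against atorvastatin (0.0% called). At an unadjusted p under 0.05 the test found 1572, 807 and 306 promoters in the 3 comparisons (3.75%, 1.93% and 0.73%), and none of the 7. DESeq2 called 1 promoter of the whole table in atorvastatin against control and 0 in the other comparisons, and limma-voom called 0 in all 3. With control 3 and atorvastatin 3 left out, 6 promoters were called with PCN (0.0143% of the table), 4 with atorvastatin (0.00954%) and 0 between the drugs (0.0%), none of them a member. An unadjusted p under 0.05 was then found for 0, 2 and 0 of the 7, against 4.51%, 3.81% and 0.41% of all promoters.

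The members lay mostly on the higher side with either drug and nearly level between the drugs, although under loess offsets, which scale each library by openness, 4 of 7 lay above 0 with PCN, with a median of 0.0010. In PCN against control 6 of the 7 most open promoters had a log2 fold change above 0 (median 0.26), against 51.0% of all promoters. In atorvastatin against control it was also 6 of 7 (median 0.27), against 57.3%. Both comparisons use the same 4 control libraries, so their counts are not independent. Between PCN and atorvastatin 3 of 7 lay above 0 (median -0.039), against 47.9%. These shares are over all promoter rows. With 1 most open promoter per symbol, as for the members, they were 47.8%, 56.8% and 44.4%. In the 10 libraries left without control 3 and atorvastatin 3 the counts were 7, 7 and 1 of 7, against 48.3%, 47.8% and 52.8% of all promoters. With 1 promoter per symbol the shares were 44.6%, 44.0% and 53.6%. The medians of the 7 members were 0.17, 0.30 and -0.082. With the loess offsets 6 of 7 lay above 0 with atorvastatin (median 0.20) and 1 of 7 between the drugs (median -0.14).

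**Figure D1:**
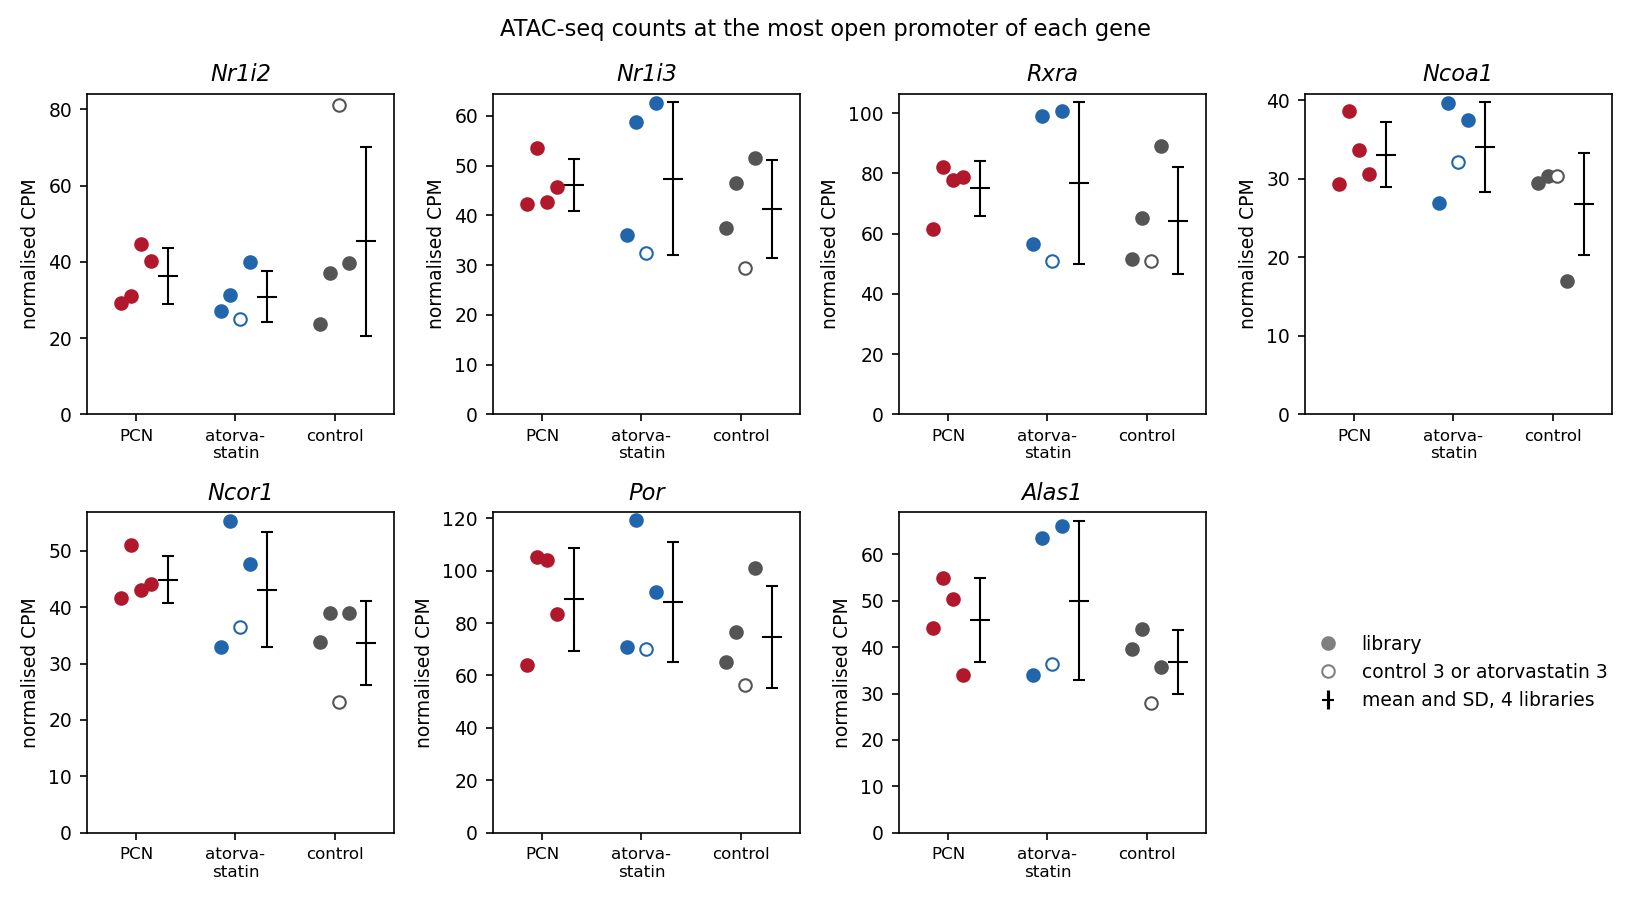
Normalised CPM at the most open promoter of each gene, by library (points) with the mean and SD of 4 libraries (bars), for PCN, atorvastatin and control. Open symbols are control 3 and atorvastatin 3; Nr1i2 in control 3 stands at 81.1 CPM, far above the other 11 libraries, and only Ncor1 shows all PCN libraries above all control libraries.

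Nr1i2, which encodes PXR, had the widest spread of the 7 promoters. Its promoter held 29.2, 31.0, 44.7 and 40.3 CPM in PCN libraries, 27.1, 31.4, 25.1 and 40.0 CPM in atorvastatin libraries, and 23.7, 37.0, 81.1 and 39.6 CPM in control libraries. Control 3 stood far above the other 11 libraries, and the groups otherwise overlapped. Its log2 fold change was -0.30 ± 0.29 (SE) with PCN and -0.53 ± 0.29 with atorvastatin (adjusted p = 0.918 and 1.00). Without control 3 and atorvastatin 3 it was 0.17 ± 0.19 and 0.032 ± 0.20, and leaving out control 3 alone gave 0.15 with PCN and -0.077 with atorvastatin. The normal 95% interval for PCN over control in the 10 libraries was 0.870 to 1.47 fold. Between PCN and atorvastatin the difference was 0.23 ± 0.28. Within groups the SD of log2 CPM was 0.49 for Nr1i2, near the median of 0.52 over all symbols, while the other members had 0.29 to 0.39.

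The 3 promoters whose profile over the 12 libraries was most like that of Nr1i2 were Atp9a, Guk1 and Acot7. Their root mean square difference in centred log2 CPM was 0.15, 0.16 and 0.18, of 10453 symbols compared with a median of 0.52. Control 3 was among the libraries used to choose them, so all 3 had to be high there. They stood at 1.07, 1.04 and 1.06 in control 3 on the centred log2 scale, and Nr1i2 at 1.19.

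Nr1i3, which encodes CAR, differed from Nr1i2 in where it was low. It held 42.4, 53.6, 42.7 and 45.7 CPM in PCN libraries, 35.9, 58.7, 32.4 and 62.5 CPM in atorvastatin libraries, and 37.4, 46.6, 29.5 and 51.5 CPM in control libraries. The lowest values were those of control 3 and atorvastatin 3, and all groups overlapped. This gave a log2 fold change of 0.16 ± 0.25 with PCN, 0.21 ± 0.25 with atorvastatin and -0.048 ± 0.24 between the drugs, and without the 2 libraries 0.052 ± 0.22, 0.25 ± 0.23 and -0.19 ± 0.21. With 10 libraries the 95% interval was 0.772 to 1.39 fold for PCN and 0.869 to 1.62 fold for atorvastatin. Most like Nr1i3 were Mir762, Ndufa6 and Rnf141, at 0.098, 0.10 and 0.10 of 9288 symbols with a median of 0.32.

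Rxra encodes RXRα, the heterodimer partner of both receptors, and its 3 rows held different counts. The highest, NM_011305, held 61.5, 82.1, 77.7 and 78.6 CPM in PCN libraries, 56.4, 99.1, 51.0 and 101 CPM in atorvastatin libraries, and 51.7, 65.3, 51.0 and 88.9 CPM in control libraries. PCN values were close together, while the other groups each spanned most of the range and overlapped it. On the log2 scale the fold change was 0.23 ± 0.28 with PCN and 0.27 ± 0.28 with atorvastatin, and 0.15 ± 0.27 and 0.34 ± 0.28 without the 2 libraries. The other rows held fewer counts. NM_001290482 averaged 25.4 ± 2.97 CPM in PCN, 24.3 ± 3.69 in atorvastatin and 26.1 ± 8.02 in control libraries (SD, n = 4 each), and NM_001290481 averaged 21.2 ± 3.61, 19.5 ± 2.76 and 23.6 ± 7.00 CPM. In control 4 both minor rows were at their lowest, 15.1 and 14.5 CPM, from 24 and 23 counts.

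Ncoa1, the p160 coactivator also called SRC-1, held 29.3, 38.6, 33.7 and 30.6 CPM in PCN libraries, 26.9, 39.6, 32.2 and 37.4 CPM in atorvastatin libraries, and 29.5, 30.3, 30.3 and 17.0 CPM in control libraries. Control 4, with 27 counts, stood below all other libraries, and the other 3 controls lay within 1 CPM of each other inside the range of both drugs. Log2 fold changes were 0.28 ± 0.22 with PCN and 0.33 ± 0.22 with atorvastatin, and -0.049 ± 0.21 between the drugs. Leaving out control 4 alone gave 0.14 with PCN and 0.19 with atorvastatin. With control 3 and atorvastatin 3 left out the atorvastatin value was 0.38 ± 0.19, at an unadjusted p of 0.0495 and an adjusted p of 0.911 by edgeR's test.

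Ncor1 encodes a corepressor that holds histone deacetylase 3 at unliganded receptors, and its promoter row NM_177229 showed the clearest separation among the members. It held 41.6, 51.0, 43.0 and 44.1 CPM in PCN libraries, 33.0, 55.3, 36.6 and 47.6 CPM in atorvastatin libraries, and 33.8, 39.0, 23.1 and 39.0 CPM in control libraries. Every PCN library was above every control library, which no other member row showed and which 2.07% of all promoters showed on the higher side and 1.52% on the lower side. Atorvastatin overlapped both groups. In the 10 libraries the count of member rows with distinct counts was again 1 higher and 0 lower with PCN (3.23% and 3.28% of promoters), and 0 on either side with atorvastatin (3.8% and 4.0%) or between the drugs (0.826% and 0.623%). The log2 fold change was 0.41 ± 0.23 with PCN (adjusted p = 0.918) and 0.36 ± 0.23 with atorvastatin (adjusted p = 1.00), and 0.28 ± 0.21 and 0.30 ± 0.22 without the 2 libraries. The lead of PCN over control was also present without control 3, where the lowest PCN value of 41.6 CPM still stood above the highest control value of 39.0 CPM, and the fold change was then 0.28.

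The other distinct Ncor1 row, NM_001252313, held fewer counts, with control 3 far from the rest. It held 6.66, 7.58, 6.23 and 10.8 CPM in PCN libraries, 6.75, 5.09, 1.69 and 8.19 CPM in atorvastatin libraries, and 7.40, 6.44, 22.3 and 7.54 CPM in control libraries. Control 3 was the highest of the 12 and atorvastatin 3 the lowest. Its log2 fold change was -0.48 ± 0.53 with PCN and -1.01 ± 0.54 with atorvastatin, against 0.13 ± 0.41 and -0.10 ± 0.43 without these libraries.

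Because a ratio between rows of a gene does not depend on library size, it was taken for Rxra and Ncor1, whose windows lie over 1 kb apart. Which window belongs to which row is not given, so that the rows compared are separate starts was assumed. The log2 ratio of NM_177229 to NM_001252313 of Ncor1 was 2.63, 2.73, 2.78 and 2.02 in PCN libraries, 2.27, 3.43, 4.39 and 2.53 in atorvastatin libraries, and 2.18, 2.58, 0.050 and 2.32 in control libraries. In control 3 these rows held nearly equal counts, and in atorvastatin 3 they differed most, while the other libraries lay between. The means were 2.54 ± 0.35 for PCN, 3.16 ± 0.96 for atorvastatin and 1.78 ± 1.17 for control libraries (SD, n = 4 each). The difference of 0.76 between PCN and control had p = 0.257, and that of 1.37 between atorvastatin and control p = 0.143, by exact two-sided permutation tests (adjusted p = 0.707 for both over 9 tests). Without the 2 libraries the differences were 0.18 and 0.38, and without control 3 alone 0.18 and 0.79.

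For Rxra, the log2 ratio of NM_011305 to NM_001290482 averaged 1.56 ± 0.29 in PCN, 1.60 ± 0.33 in atorvastatin and 1.31 ± 0.86 in control libraries (SD, n = 4 each). The control values of 0.92, 1.23, 0.57 and 2.54 enclosed the values of both drugs, with control 4 the highest and control 3 the lowest. PCN differed from control by 0.24 (exact permutation p = 0.629, adjusted p = 0.707), and by -0.0028 without the 2 libraries. The ratio to NM_001290481 gave 0.37 (exact permutation p = 0.457, adjusted p = 0.707). With 4 against 4 libraries the smallest p such a test can give is 0.0286.

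**Figure D2:**
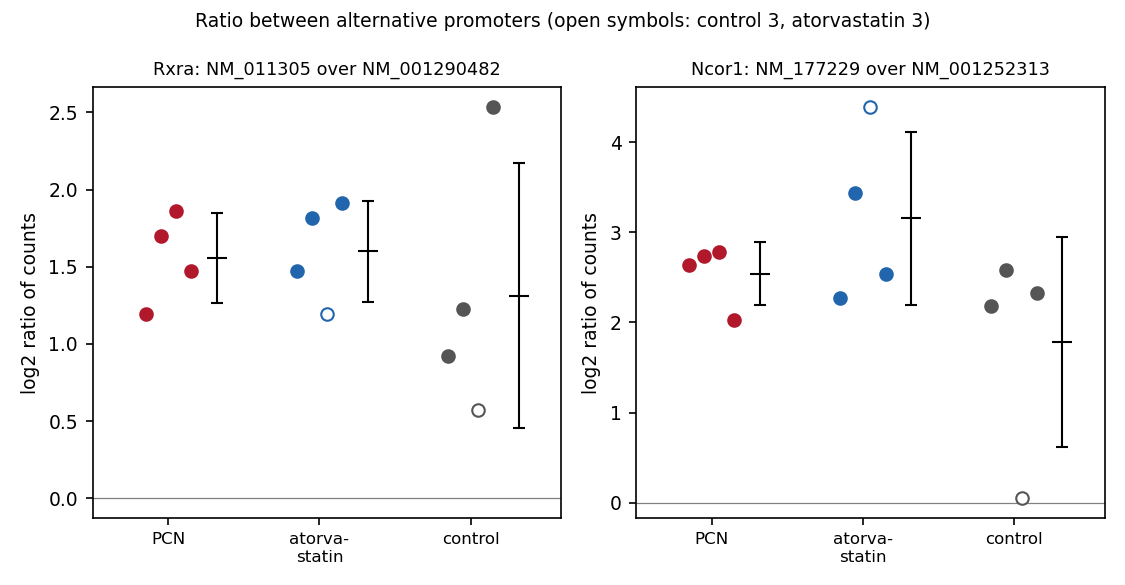
Log2 ratio of counts between the row of higher and the row of lower counts of Rxra (left) and Ncor1 (right), by library, with the mean and SD of 4 libraries. Open symbols are control 3 and atorvastatin 3; for Ncor1 they are the lowest value, 0.050, and the highest, 4.39.

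Por, the reductase that passes electrons from NADPH to microsomal P450 enzymes, held 63.8, 105, 104 and 83.4 CPM in PCN libraries, 70.9, 119, 70.2 and 91.8 CPM in atorvastatin libraries, and 65.1, 76.6, 56.2 and 101 CPM in control libraries. Atorvastatin 2 was the highest and control 3 the lowest, and the groups overlapped. This gave a log2 fold change of 0.26 ± 0.28 with PCN, 0.24 ± 0.28 with atorvastatin and 0.015 ± 0.28 between the drugs. Without the 2 libraries these were 0.16 ± 0.28, 0.23 ± 0.30 and -0.074 ± 0.28, and the 95% interval for PCN over control was 0.762 to 1.64 fold.

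Alas1, the first and rate-limiting enzyme of hepatic heme synthesis, had the highest log2 fold change with atorvastatin against control of the 7 promoters. NM_020559 held 44.2, 55.0, 50.5 and 34.0 CPM in PCN libraries, 34.1, 63.6, 36.5 and 66.1 CPM in atorvastatin libraries, and 39.6, 43.9, 27.9 and 35.8 CPM in control libraries. Atorvastatin 2 and 4 were above every other library, while atorvastatin 1 and 3 lay among the controls. On the log2 scale the fold change was 0.31 ± 0.25 with PCN and 0.44 ± 0.25 with atorvastatin, and 0.20 ± 0.22 and 0.46 ± 0.23 without control 3 and atorvastatin 3. In the 10 libraries the atorvastatin value had an unadjusted p of 0.0474 and an adjusted p of 0.911 by edgeR's test, and the 95% interval was 1.01 to 1.88 fold. The row NM_001291835 had nearly the same CPM in each library and gave 0.30 ± 0.25 with PCN and 0.44 ± 0.25 with atorvastatin. Alas1 and Ncoa1 were the 2 of 7 promoters under an unadjusted p of 0.05 in that comparison of 10 libraries.

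**Figure D3:**
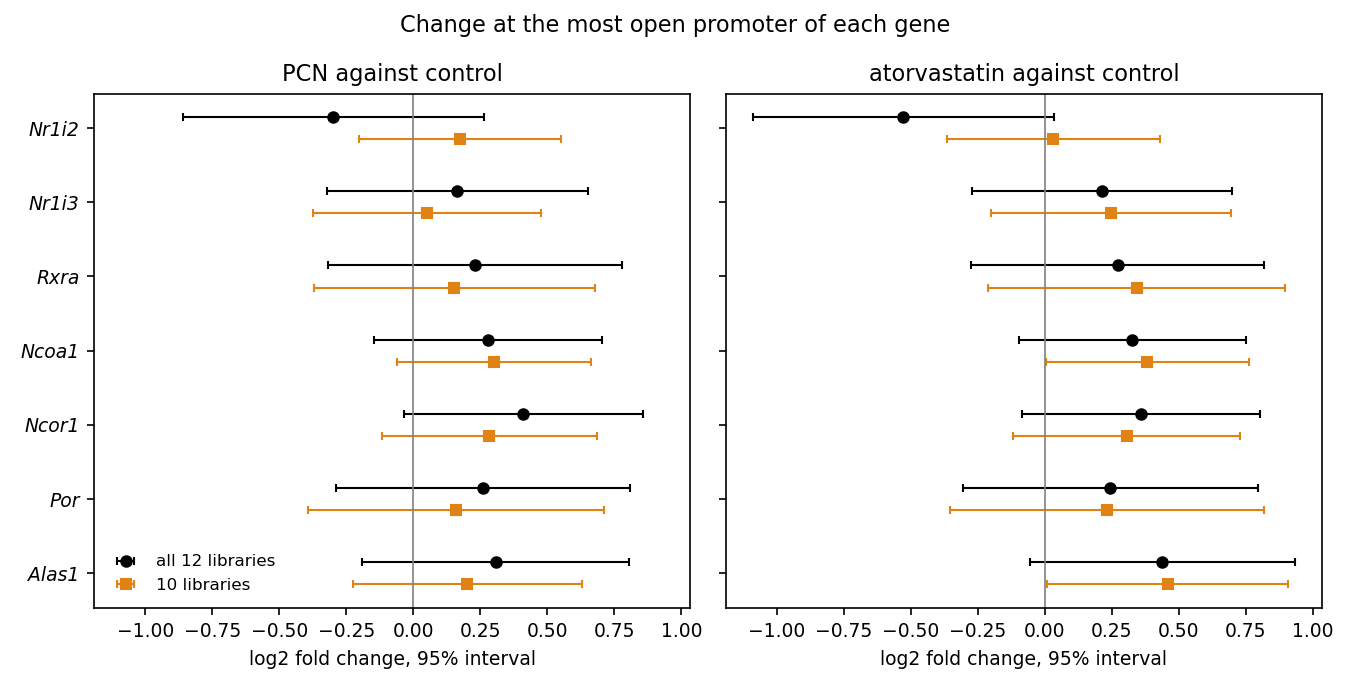
Log2 fold change with normal 95% interval at the most open promoter of each gene, for PCN against control (left) and atorvastatin against control (right), with all 12 libraries (circles) and with 10 libraries (squares, without control 3 and atorvastatin 3). Nr1i2 is at -0.30 and -0.53 with 12 libraries and at 0.17 and 0.032 with 10; intervals of the other genes include 0 except those of Ncoa1 and Alas1 for atorvastatin with 10 libraries.

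Enhancer rows are given by the deposited mm10 coordinates and placed by their distance from the RefSeq start site, positive downstream. Around Nr1i2 there were 57 rows in 24 groups of overlapping rows, around Nr1i3 22 rows in 6 groups, and around Alas1 33 rows in 12 groups, and 90 of the 112 rows passed the filter on low counts. The 12 most common widths of the enhancer table each had their highest relative count in a different library, which gives a row its width class. The lead over the next library was wide for 192 bp, the class of control 3 (7.06 against 1.34). For 82 bp, the class of atorvastatin 2, it was small (0.77 against 0.74), so the class does not always set a library apart. Each group is represented by its row of highest mean CPM, and CPM per kb allows levels to be compared between regions. The rows that represent the most open region of each gene are all of the class of control 4. Those at 15.0 kb in Nr1i2 and 9.3 kb upstream of Nr1i3 are of atorvastatin 3, and that at 15.6 kb upstream of Alas1 is of control 3. The part of the class in their values was not tested. No row near these genes was called in any comparison (0.0% of 182115 enhancers called in each). At an unadjusted p under 0.05 edgeR's test found 3511, 4361 and 847 enhancers of the whole table with PCN against control, atorvastatin against control and PCN against atorvastatin, or 1.93%, 2.39% and 0.465%, of which 1, 10 and 1 lay near these genes. In the 10 libraries left without control 3 and atorvastatin 3 it found 18, 17 and 3 of 93 rows near these genes, where 7.72%, 5.52% and 1.93% of all enhancers were so, and again called 0 rows of the table. Of these rows 12 with PCN and 12 with atorvastatin were at Alas1, and many overlap each other.

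Of the 90 rows tested, 64 lay above 0 with PCN against control (background 62.0%), 39 with atorvastatin against control (58.4%) and 60 with PCN against atorvastatin (55.4%). Rows of a group share reads, and over 24 groups with a tested row the counts were 12, 10 and 15. The median of all enhancers was itself at 0.17 with PCN and 0.12 with atorvastatin, and at -0.13 and -0.0067 under loess offsets, so a value near 0.17 is the level of the table. Without control 3 and atorvastatin 3 the medians were 0.016 and 0.011, and 60 and 57 of 93 rows lay above 0 (51.3% and 50.9%).

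**Figure D4:**
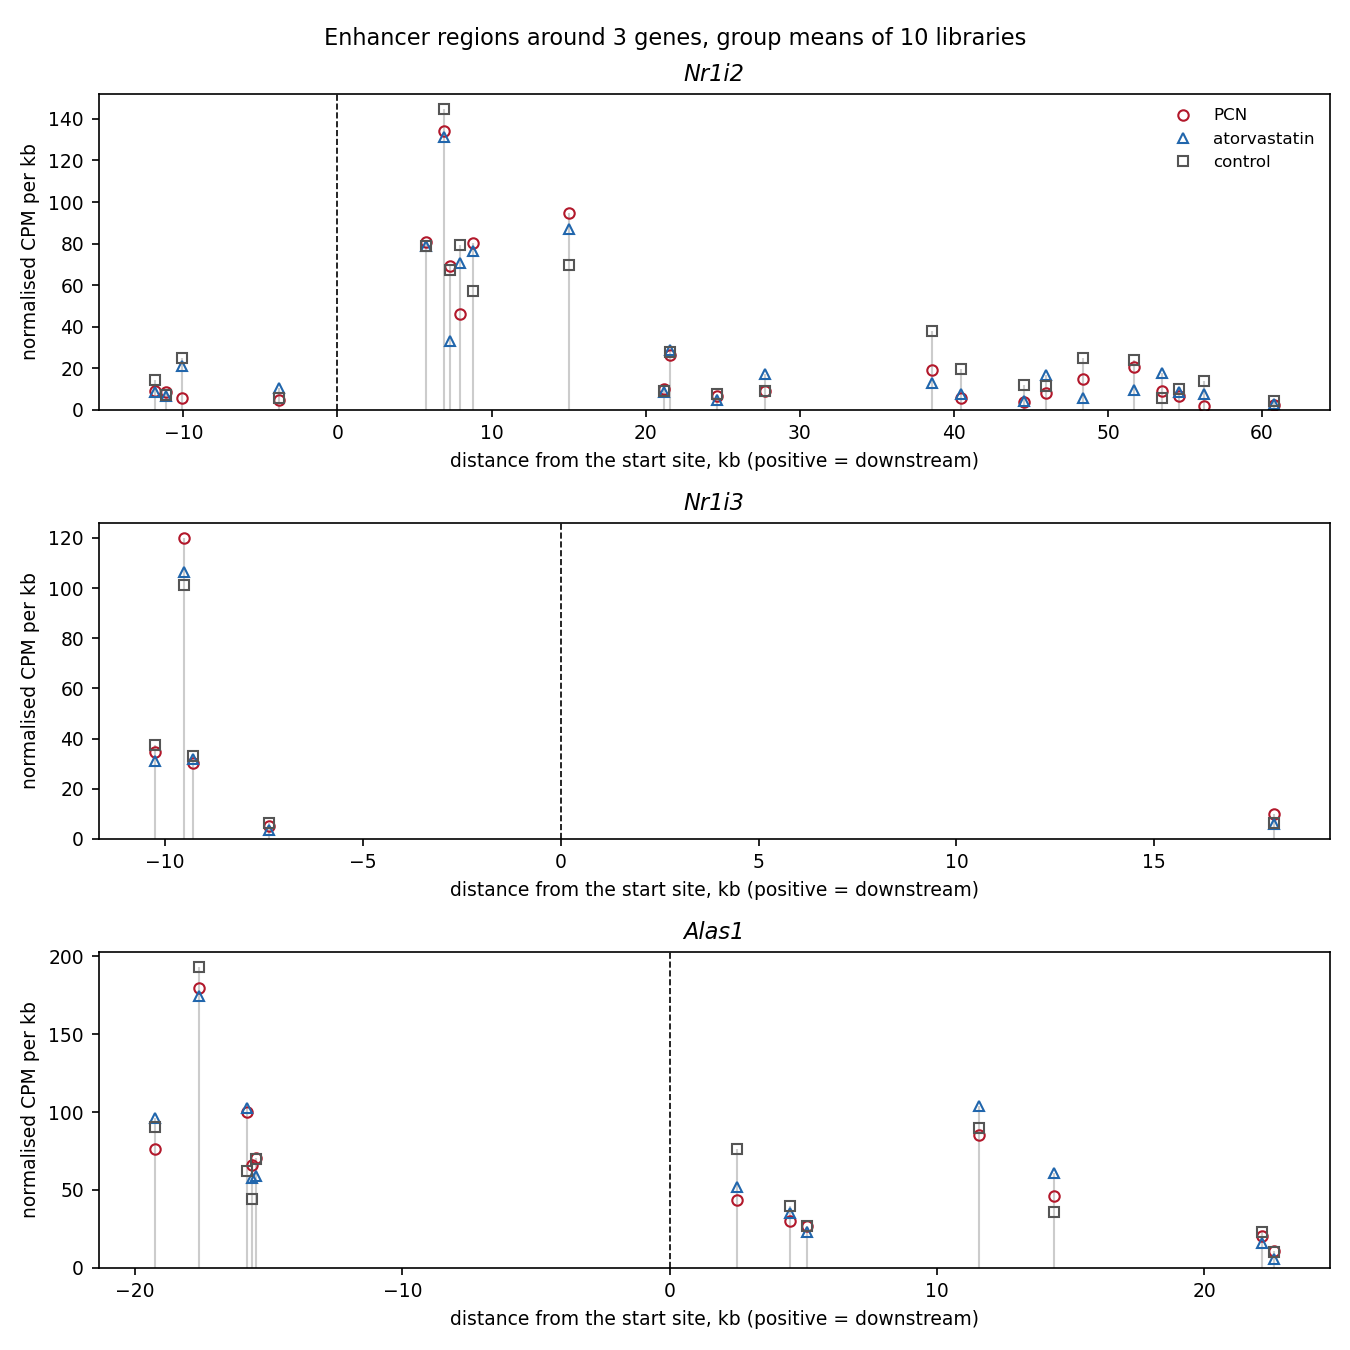
Mean normalised CPM per kb of the reported groups of overlapping enhancer rows around Nr1i2, Nr1i3 and Alas1, against distance from the start site in kb (positive is downstream), for PCN (circles), atorvastatin (triangles) and control (squares), over 10 libraries without control 3 and atorvastatin 3. The most open regions lie 6.9 kb downstream of the Nr1i2 start, 9.5 kb upstream of Nr1i3 and 17.6 kb upstream of Alas1, where PCN, atorvastatin and control averaged 134, 131 and 145 CPM per kb, then 120.2, 106 and 101, then 179.6, 174 and 193. The rows shown for these regions are of the width class of control 4, whose part was not tested.

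The 5 regions of the Nr1i2 locus with the highest mean CPM lay inside the gene, between 6.9 and 15.0 kb after its start. The most open, chr16:38287826-38287972 at 6.9 kb, averaged 119 CPM per kb and was recorded as 9 overlapping rows of 9 width classes. It held 18.2, 17.9, 20.4 and 21.9 CPM in PCN libraries, 15.6, 22.8, 5.25 and 19.1 CPM in atorvastatin libraries, and 16.1, 24.6, 4.59 and 22.8 CPM in control libraries. Control 3 and atorvastatin 3 were the only low libraries. Log2 fold changes were 0.21 ± 0.44 with PCN and -0.089 ± 0.44 with atorvastatin, and -0.058 ± 0.27 and -0.062 ± 0.28 without them.

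The region at 15.0 kb, chr16:38279734-38279916, also inside Nr1i2 and recorded in 10 width classes, had its lowest values in control libraries. It held 11.4, 21.8, 19.4 and 16.3 CPM in PCN libraries, 13.1, 16.4, 19.9 and 17.9 CPM in atorvastatin libraries, and 9.79, 13.5, 0 and 14.7 CPM in control libraries. The lowest drug-treated values lay among the controls, and control 3 had no count. The log2 fold change was 0.85 ± 0.53 with PCN and 0.82 ± 0.53 with atorvastatin, and 0.51 ± 0.30 and 0.39 ± 0.31 without control 3 and atorvastatin 3. Of its 10 rows, 3, of the width classes of PCN 2, atorvastatin 1 and atorvastatin 4, had every atorvastatin library above every control library. They are part of 8 such rows of the 90, 3 at Nr1i2 and 5 at Alas1, where 2.12% of all enhancers did so and 0.674% were lower. The 3 rows belong to 1 group of overlapping rows and the 5 to another, so they share reads and are not separate sites. None of the 8 is of a control width class, and the part of the width class was not tested. With all 12 libraries no row near these genes had all PCN libraries above or below all controls, against 3.64% and 0.859% of enhancers. Between PCN and atorvastatin 1 row was higher, in the main Nr1i3 region, and 1 lower, 10.1 kb upstream of Nr1i2, against 1.43% and 0.898%.

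In the 10 libraries 6 of the 90 rows, all at Nr1i2, had every PCN library below every control, where 3.75% of all enhancers did so, and 0 were higher (4.78%). They were 3 rows of 1 group 10.1 kb upstream, 2 at 8.0 kb and 1 at 38.7 kb into the gene, and they were singled out after their values were seen. The upstream rows are of the width classes of atorvastatin 1, control 4 and control 2. Those at 8.0 kb are of control 4 and atorvastatin 2, and that at 38.7 kb is of PCN 2. The part of the width class in their values was not tested. The upstream row at chr16:38304868-38305000 held 1.59, 0.569, 0.469 and 0.358 CPM in PCN libraries, 4.46, 1.85, 5.99 and 2.02 CPM in atorvastatin libraries, and 3.74, 3.26, 0 and 2.85 CPM in control libraries. PCN libraries were low there with 7.5 counts or fewer each, and control 3 had none. All PCN counts of the 3 upstream rows were under 10, the minimum count of the filter. These rows thus passed the filter through control and atorvastatin libraries, and their low PCN values are no independent result. Log2 fold changes of the 3 upstream rows with PCN in 10 libraries were -2.01 ± 0.73, -2.30 ± 0.83 and -1.78 ± 0.77 (unadjusted p = 0.00886, 0.00840 and 0.0256, adjusted p = 0.514, 0.511 and 0.597 by edgeR's test). With atorvastatin 9 rows were higher than all controls (6.31% of enhancers) and 2 lower (4.51%), and between the drugs 1 was higher (2.23%) and 1 lower (2.27%). All 9 higher rows belong to the overlapping groups at 15.0 kb in Nr1i2 and 19.3 kb upstream of Alas1, whose rows share reads.

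At 8.0 kb into Nr1i2 the PCN libraries stood low, in a group of 2 rows of the width classes of atorvastatin 2 and control 4. It held no row of a PCN class, and the part of the width class was not tested. The region, chr16:38286767-38286913, held 5.93, 8.40, 5.81 and 6.81 CPM in PCN libraries, 6.93, 13.2, 9.12 and 10.8 CPM in atorvastatin libraries, and 10.3, 11.2, 1.35 and 13.3 CPM in control libraries. With control 3 set aside, every PCN library was below every control library. The log2 fold change with PCN was -0.39 ± 0.51 in 12 libraries and -0.71 ± 0.31 in 10 (unadjusted p = 0.0294, adjusted p = 0.608 by edgeR's test), and PCN against atorvastatin gave -0.59 ± 0.49 and -0.69 ± 0.29. Its neighbour at 7.3 kb, a single row of the width class of control 4, lay on the other side of 0 between the drugs. It gave 0.93 ± 0.48 for PCN against atorvastatin, with means of 10.1 ± 3.53 CPM in PCN and 5.07 ± 1.78 CPM in atorvastatin libraries (SD, n = 4 each). In 10 libraries it gave 0.90 ± 0.35. The region at 8.8 kb had log2 fold changes of 0.89 ± 0.64 with PCN and 0.58 ± 0.64 with atorvastatin, with 0 counts in control 3, and 0.54 ± 0.36 and 0.47 ± 0.38 in 10 libraries. Its rows are of the width classes of PCN 2, PCN 3 and atorvastatin 4, with none of a control class, and the part of the class was again not tested.

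Summed over 1 row per group, the Nr1i2 locus held 91.6 ± 11.7 CPM in PCN, 96.3 ± 11.2 CPM in atorvastatin and 86.9 ± 34.6 CPM in control libraries (SD, n = 4 each). Control 3 alone had 35.1 CPM, and the other 3 controls averaged 104 ± 2.46 CPM. The library with the most open Nr1i2 promoter, control 3 at 81.1 CPM, also had the least signal in the Nr1i2 enhancer rows. No Nr1i2 group held a row of the width class of control 3. At Alas1, where some groups did, control 3 had the highest sum of the 12 libraries, 167 CPM. Whether the low sum at Nr1i2 follows from these classes was not tested.

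Among the regions reported around Nr1i3, the most open lay upstream, outside any annotated gene. The main region, chr1:171204384-171204530 at 9.5 kb upstream, averaged 103 CPM per kb and was recorded in 10 width classes. It held 13.6, 23.6, 16.5 and 16.5 CPM in PCN libraries, 14.1, 16.5, 9.49 and 15.9 CPM in atorvastatin libraries, and 14.6, 13.2, 10.3 and 16.6 CPM in control libraries. PCN 2 was the highest, control 3 and atorvastatin 3 the lowest, and the groups overlapped. Its log2 fold change was 0.36 ± 0.34 with PCN and 0.041 ± 0.34 with atorvastatin, and 0.31 ± 0.28 and 0.13 ± 0.29 in 10 libraries. At 10.3 and 9.3 kb upstream, weaker regions averaged 29.3 and 31.9 CPM per kb and gave 0.25 ± 0.75 and 0.32 ± 0.66 with PCN, against -0.11 ± 0.41 and -0.027 ± 0.38 in 10 libraries. Control 3 had no count in either.

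Downstream of Nr1i3, the region at 18.0 kb, in Fcer1g, did not pass the filter and was counted mainly in atorvastatin 3. Summed over groups, the Nr1i3 locus held 34.6 ± 6.68 CPM in PCN, 35.5 ± 5.85 CPM in atorvastatin and 31.4 ± 4.56 CPM in control libraries (SD, n = 4 each), with overlapping values. Without the 2 libraries the atorvastatin mean was 32.5 ± 0.337 CPM and the control mean 33.0 ± 4.05 CPM (SD, n = 3 each).

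Alas1 had the most open region of the 3 loci, 17.6 kb upstream at chr9:106265480-106265626, within the annotated body of the non-coding gene Gm33564. Enhancer elements upstream of mouse Alas1 that bind PXR and CAR have been described, and whether this region is one of them was not tested. It averaged 166 CPM per kb and was recorded in 10 width classes. The row given is of the class of control 4, which was also its highest library, and the part of the class was not tested. It held 23.1, 29.9, 24.8 and 27.1 CPM in PCN libraries, 16.6, 34.4, 12.0 and 25.3 CPM in atorvastatin libraries, and 18.6, 27.2, 13.5 and 39.0 CPM in control libraries. PCN values lay within the spread of both other groups. This gave a log2 fold change of 0.12 ± 0.35 with PCN and -0.11 ± 0.35 with atorvastatin, and -0.013 ± 0.29 and -0.014 ± 0.30 in 10 libraries, with a 95% interval for PCN of 0.672 to 1.46 fold.

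Further upstream, at 19.3 kb, 9 rows formed a group whose members differed along its length. The representative row, chr9:106267122-106267314, is of the width class of control 3 and gave -0.36 ± 0.36 with PCN and -0.090 ± 0.36 with atorvastatin, or -0.084 ± 0.31 and 0.25 ± 0.32 in 10 libraries. Another 5 rows of the group, centred 19.1 kb upstream, were those in which all atorvastatin libraries exceeded all controls, and they were singled out after their values were seen. They are of the width classes of PCN 1, PCN 2, atorvastatin 1, atorvastatin 2 and atorvastatin 4. None is of a control class, and the part of the width class was not tested. One of them, chr9:106267018-106267150, held 17.6, 16.5, 16.2 and 9.50 CPM in PCN libraries, 12.6, 20.8, 36.7 and 14.0 CPM in atorvastatin libraries, and 11.3, 9.61, 4.59 and 7.13 CPM in control libraries. Atorvastatin 3 was the highest and control 3 the lowest. PCN 1, PCN 2 and PCN 3 lay within the atorvastatin range and above every control, and PCN 4 lay in the control range. The row thus did not set atorvastatin apart from PCN. Its log2 fold change with atorvastatin was 1.32 ± 0.41 (unadjusted p = 0.00386, adjusted p = 1.00 by edgeR's test), and 0.74 ± 0.31 in 10 libraries (adjusted p = 0.888).

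Within the Alas1 body, the regions at 11.6 and 14.4 kb are single rows of the width classes of atorvastatin 3 and control 3. The one at 11.6 kb, chr9:106236297-106236479, held 16.6, 19.5, 12.6 and 13.3 CPM in PCN libraries, 13.9, 25.2, 35.2 and 17.7 CPM in atorvastatin libraries, and 16.2, 16.6, 15.7 and 16.2 CPM in control libraries. Controls were nearly equal, and the high value was that of atorvastatin 3. On the log2 scale the fold change was -0.069 ± 0.33 with PCN and 0.51 ± 0.33 with atorvastatin, and -0.048 ± 0.28 and 0.29 ± 0.29 in 10 libraries. At 14.4 kb the value with PCN was -0.73 ± 0.63 in 12 libraries and 0.43 ± 0.43 in 10. With atorvastatin it was -0.53 ± 0.62 in 12 libraries and 0.92 ± 0.43 in 10 (unadjusted p = 0.0377, adjusted p = 0.901 by edgeR's test). Control 3 held 39.1 CPM there against 6.65 to 7.00 CPM in the other controls, and atorvastatin 2 held 22.7 CPM against 4.50 to 7.24 CPM in the other atorvastatin libraries. The region at 15.6 kb upstream gave 0.19 ± 0.44 with PCN, and 0.71 ± 0.35 in 10 libraries (unadjusted p = 0.0472, adjusted p = 0.642 by edgeR's test), where 7.72% of enhancers were under an unadjusted p of 0.05. Summed over groups, the Alas1 locus held 116 ± 22.4 CPM in PCN, 124 ± 30.1 CPM in atorvastatin and 130.5 ± 33.1 CPM in control libraries (SD, n = 4 each). Without the 2 libraries atorvastatin averaged 123 ± 36.8 CPM and control 118 ± 27.8 CPM (SD, n = 3 each).

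**Figure D5:**
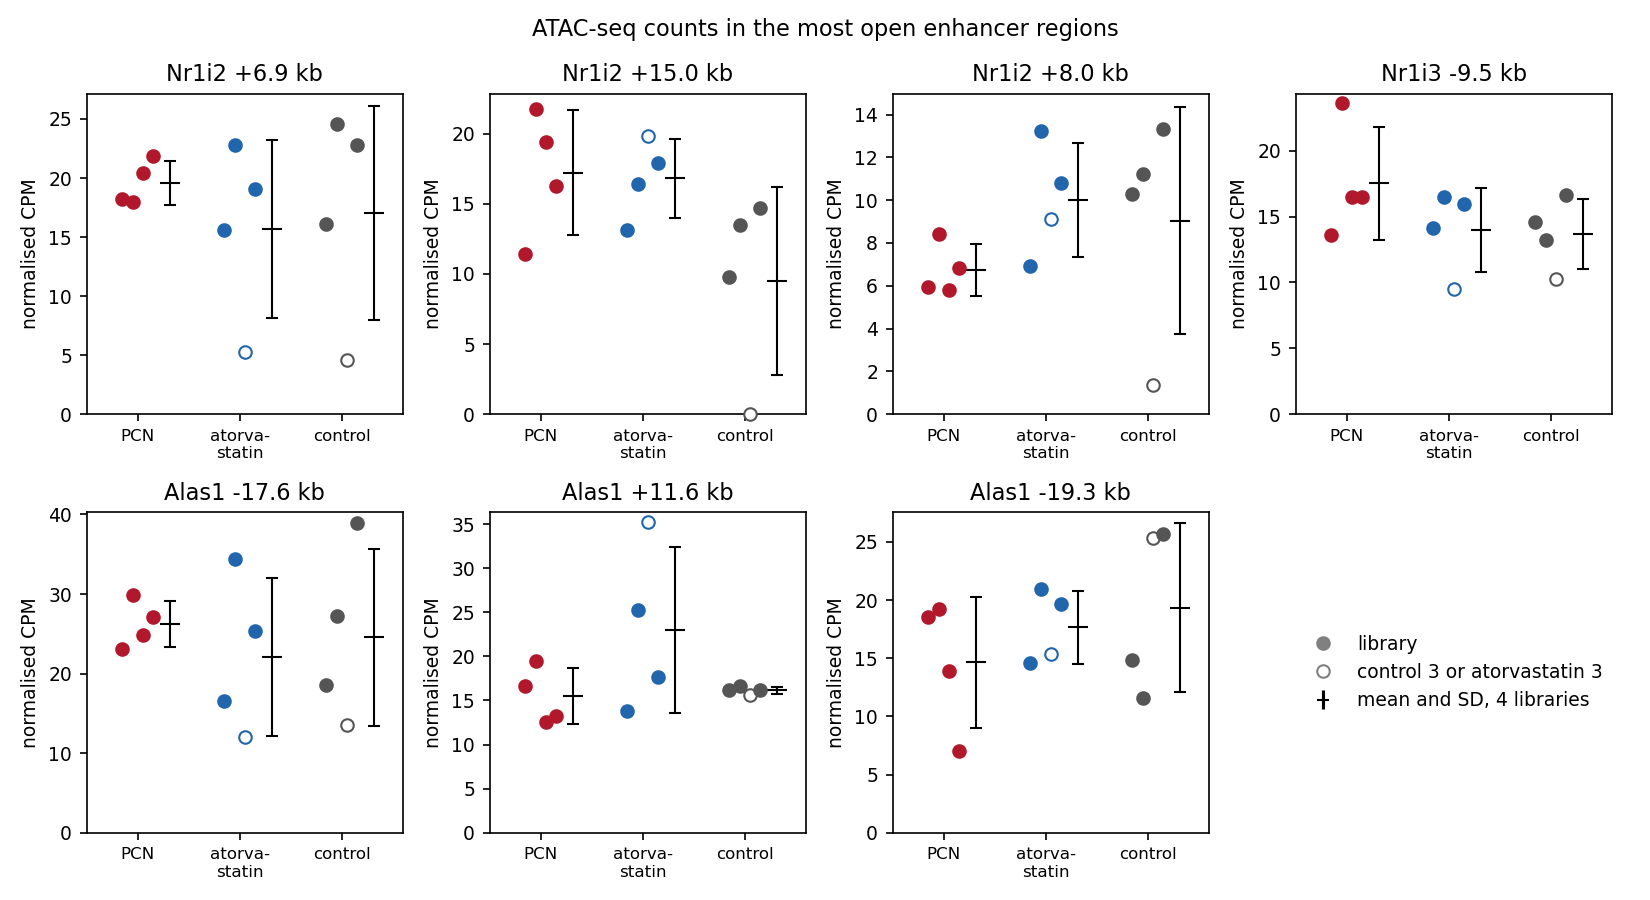
Normalised CPM by library in the 3, 1 and 3 enhancer regions of Nr1i2, Nr1i3 and Alas1 with the highest mean CPM, with the mean and SD of 4 libraries; distances are from the start site. Open symbols are control 3 and atorvastatin 3, which are the lowest libraries at Nr1i2 +6.9 kb (4.59 and 5.25 CPM) and the lowest and highest at Nr1i2 +15.0 kb within their groups (0 and 19.9 CPM).

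The wider machinery around the receptors was read from 26 further partner genes (other RXR subtypes, coactivators, corepressor subunits, chaperones and liver transcription factors), each by its most open promoter. With PCN against control 26 of 26 lay above 0 (median 0.27), against 47.8% of all 24603 symbols, and 0 passed edgeR's test (smallest adjusted p = 0.918); 1 had an unadjusted p under 0.05. Nr0b2, the repressor SHP, stood highest at 0.58 ± 0.26, with 78.8 ± 11.4 CPM in PCN and 52.8 ± 10.6 CPM in control libraries (SD, n = 4 each), followed by the coactivator Ppargc1a at 0.52 ± 0.35 and the pioneer factor Foxa2 at 0.47 ± 0.27. In 10 libraries Nr0b2 stood at 0.54 ± 0.26, Foxa2 at 0.43 ± 0.27 and Ppargc1a at 0.23 ± 0.19, below Prmt1, the third highest, at 0.37 ± 0.30. The lowest in 12 libraries were Hdac3 and Rxrg, at 0.049 and 0.050, and they stood at 0.17 and 0.10 in 10. With atorvastatin 20 of 26 lay above 0 (median 0.11), against 56.8% of symbols, led by Ncoa6, Hnf4a and Ppp2ca at 0.45, 0.40 and 0.36, and in 10 libraries these stood at -0.26, 0.10 and 0.33. Between PCN and atorvastatin 22 of 26 lay above 0 (median 0.13), against 44.4%. With control 3 and atorvastatin 3 left out the counts were 24, 23 and 15 of 26, against 44.6%, 44.0% and 53.6% of symbols. Under loess offsets they were 15, 15 and 13.

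Of 20 genes of heme synthesis and electron transfer, 16 lay above 0 with PCN (median 0.18), 12 with atorvastatin (median 0.074) and 15 between the drugs (median 0.071), and 0 passed the test. Of all symbols 47.8%, 56.8% and 44.4% lay above 0 in these comparisons. Fech, which inserts iron into protoporphyrin to form heme, stood highest in both drug comparisons, at 0.47 ± 0.24 with PCN and 0.45 ± 0.24 with atorvastatin, next to Alad at 0.39 ± 0.23 and 0.34 ± 0.23, an early enzyme of the pathway that follows ALAS1. Pgrmc2, a heme-binding membrane protein, stood lowest at -0.14 ± 0.26 and -0.30 ± 0.26. In 10 libraries Fech stood at 0.31 ± 0.21 and 0.39 ± 0.22, Alad at 0.40 ± 0.24 and 0.42 ± 0.25, and Pgrmc2 at -0.024 ± 0.24 and -0.036 ± 0.26. Without the 2 libraries the counts were 16, 16 and 7 of 20, against 44.6%, 44.0% and 53.6% of symbols. Under loess offsets they were 10, 10 and 7.

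The receptors' target genes were more divided. Of 50 known PXR and CAR targets, 29 lay above 0 with PCN (median 0.18), 29 with atorvastatin (median 0.058) and 37 with PCN against atorvastatin (median 0.11), and 0 passed the test. The shares of all symbols above 0 were 47.8%, 56.8% and 44.4%. Without the 2 libraries the counts were 28, 25 and 34, against 44.6%, 44.0% and 53.6% of symbols. Under loess offsets they were 32, 25 and 34. Highest with PCN were Ces2c, a carboxylesterase, at 0.73 ± 0.30, Cyp3a13 at 0.69 ± 0.32 and Abcc2, a canalicular exporter, at 0.65 ± 0.27, and in 10 libraries they stood at 0.81 ± 0.25, 0.47 ± 0.19 and 0.49 ± 0.19. Ces2c averaged 17.2 ± 6.79 CPM in PCN and 10.5 ± 1.53 CPM in control libraries (SD, n = 4 each), and these groups did not overlap, which 2.07% of all promoters showed on the higher side. Lowest were Cyp2b23, Sult2a1 and Abcb1a at -0.97 ± 0.76, -0.59 ± 0.93 and -0.58 ± 0.76, all at under 6 CPM, and in 10 libraries they stood at 0.016 ± 0.65, -0.99 ± 0.67 and -0.23 ± 0.69. Cyp3a11, the main PCN-inducible P450 of mouse liver, held 12.7, 22.3, 23.4 and 32.2 CPM in PCN libraries, 16.3, 16.7, 38.8 and 17.6 CPM in atorvastatin libraries, and 14.4, 16.1, 7.58 and 20.1 CPM in control libraries. Atorvastatin 3 was its highest library and control 3 its lowest, and the groups overlapped. Its log2 fold change was 0.64 ± 0.33 with PCN and 0.63 ± 0.32 with atorvastatin in 12 libraries, and 0.47 ± 0.21 and 0.065 ± 0.22 in 10 (adjusted p = 0.905 with PCN in 10 libraries by edgeR's test). Cyp3a41a stood at 0.66 ± 0.81 with atorvastatin in 12 libraries and at -0.73 ± 0.74 in 10.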

How the data were processed

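ATAC-seq libraries of mouse liver were analysed from 2 deposited tables, of promoters and of enhancers. Both held counts in steps of 0.5, handled like estimated counts; the unit was read from the values, since the counting tool, the region rule and the filters of the authors are not given in the sources used here. The submitters' processing notes list the tools HOMER 4.10, bedtools 2.30.0, STAR 2.7.9a and Trimmomatic and the build mm10, without their roles. The deposited expected counts were rounded to whole numbers for the tests. No sample column was left unused (0 columns).

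All rows of a table were fitted together over the 12 libraries with edgeR 4.0.16 in R 4.3.3 (TMM scaling, group as the only term, quasi-likelihood test, Benjamini-Hochberg adjustment, threshold 0.05), after filterByExpr (count of at least 10, total of at least 15). The SE is the absolute log2 fold change divided by the square root of F, and the interval is the normal 95% interval. Log2 CPM used a prior count of 2. Promoter ratios used counts plus 0.5 and exact permutation tests. Alternatives were RLE factors, library totals, loess offsets, other filters, DESeq2 1.42.0, limma 3.58.1 (voom), a fit of only the groups compared, a replicate block and left-out libraries. Scripts were tested on simulated data.

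Named were the members, up to 5 enhancer groups per gene with the highest mean CPM, and the 3 highest and 3 lowest genes of each list; 1 enhancer group and 1 list gene are not reported here, although counts and sums include them. The members and lists were chosen with earlier results of these data known. Values for each library rest on the totals given in the text, so the shallowest library, control 4, is the least precise.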

Additional observations from a re-analysis of the deposited data

Results flagged for a closer look

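In 7 of 84 groups of 4 libraries, 1 library lay so far from the other 3 that its gap to them, as a share of the group's range, exceeded Dixon's 95% critical value, which chance gives in about 1 of 20 groups. At the Ncoa1 promoter this was control 4, with 17.0 CPM against 29.5 to 30.3 CPM in the other controls. At the Ncor1 row NM_001252313 it was control 3, with 22.3 CPM against 6.44 to 7.54 CPM, and in the Ncor1 log2 ratio of NM_177229 to NM_001252313 it was again control 3, at 0.050 against 2.18 to 2.58. At Nr1i3, control 3 held 0 CPM in the region 10.3 kb upstream, where the other controls held 4.56 to 5.23 CPM, and atorvastatin 3 held 11.2 CPM in the region 18.0 kb downstream, where the other atorvastatin libraries held 0.324 to 1.73 CPM. In the Alas1 region 14.4 kb downstream of the start, atorvastatin 2 held 22.7 CPM against 4.50 to 7.24 CPM in the other atorvastatin libraries, and control 3 held 39.1 CPM against 6.65 to 7.00 CPM in the other controls. Of the 7 values, 4 were those of control 3, 1 that of atorvastatin 3, 1 that of control 4 and 1 that of atorvastatin 2.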

How the results depend on the processing

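No member promoter or named enhancer region passed the threshold under any scaling, filter, test or left-out library tried. Counts per library limit precision: 3 counts correspond to 1.62 CPM in control 3 and 2.85 CPM in control 4 among enhancers, and intervals cover the spread between libraries only. Over the whole tables, DESeq2 called 1 promoter in atorvastatin against control. Without control 3 and atorvastatin 3 there were 6 promoters with PCN and 4 with atorvastatin, and with a replicate block in that fit 124 and 57 promoters and 20 and 4 enhancers, none of them a member. Same-numbered libraries deviated together in part: 6 of 12 pairs of promoter deviations correlated above 0.1 (r between -0.42 and 0.50, 5 of 12 libraries best with their own number), and 7 of 12 in enhancers (r between -0.015 and 0.15, 10 of 12 libraries best with their own number, a hint from the data and not the design). Since not every pair was above 0.1, the numbers were not taken as pairing. The replicate block by itself called 0 regions. With library totals only the median of all promoters with PCN was -0.10, against 0.0097 with TMM. The number of members above 0 with PCN was 4 of 7 with loess offsets and 6 of 7 with the other scalings. Under settings other than a single left-out library, 15 promoter values, 49 enhancer values and 1 ratio changed side, given here, and 216, 371 and 26 did not; the cause was not tested.

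Without control 3 and atorvastatin 3, PCN against control gave Nr1i2 0.17, Nr1i2 +6.9 kb -0.058, Nr1i3 -10.3 kb -0.11, Nr1i3 -9.3 kb -0.027, Alas1 +14.4 kb 0.43, Alas1 -17.6 kb -0.013 and ratio of Rxra NM_011305 over NM_001290482 -0.0028. Atorvastatin against control gave Nr1i2 0.032, Nr1i2 +8.0 kb -0.018, Alas1 +14.4 kb 0.92, Alas1 -15.6 kb 0.57 and Alas1 -19.3 kb 0.25. PCN against atorvastatin gave Ncor1 NM_177229 -0.021 and Por -0.074. Without these libraries and with the replicate block, PCN against control came to Nr1i2 0.031, Nr1i2 +6.9 kb -0.067, Nr1i3 -9.3 kb -0.021, Alas1 +14.4 kb 0.33 and Alas1 +11.6 kb 0.053. Atorvastatin against control came to Nr1i2 +8.0 kb -0.10, Alas1 +14.4 kb 0.87, Alas1 -15.6 kb 0.54 and Alas1 -19.3 kb 0.27. PCN against atorvastatin came to Por -0.16 and Nr1i2 +8.8 kb -0.20. With loess offsets, PCN against control was Nr1i3 -0.027, Por -0.0047, Nr1i2 +7.3 kb -0.36, Nr1i2 +6.9 kb -0.0082, Alas1 -15.6 kb -0.52 and Alas1 -17.6 kb -0.051. Atorvastatin against control was Nr1i3 -9.5 kb -0.24. PCN against atorvastatin was Ncor1 NM_177229 -0.057, Por -0.21 and Nr1i2 +15.0 kb -0.088. With limma-voom, atorvastatin against control gave Nr1i2 +6.9 kb 0.22, Nr1i3 -10.3 kb 0.43, Alas1 +14.4 kb 0.46, Alas1 -15.6 kb 0.50, Alas1 -17.6 kb 0.40 and Alas1 -19.3 kb 0.33. PCN against atorvastatin gave Nr1i3 0.081, Rxra NM_011305 0.11, Nr1i2 +15.0 kb -0.034, Alas1 -15.6 kb -0.12 and Alas1 -17.6 kb -0.13. With library totals only, PCN against control came to Alas1 -15.6 kb -0.12 and Alas1 -17.6 kb -0.026. Atorvastatin against control came to Nr1i3 -9.5 kb -0.10. PCN against atorvastatin came to Por -0.038 and Nr1i2 +15.0 kb -0.010. With no filter, PCN against control was Alas1 +11.6 kb 0.16. Atorvastatin against control was Nr1i2 +6.9 kb 0.045, Alas1 -15.6 kb 0.078, Alas1 -17.6 kb 0.019 and Alas1 -19.3 kb 0.023. With a minimum count of 30, PCN against control gave Alas1 -17.6 kb -0.020. Atorvastatin against control gave Nr1i3 -9.5 kb -0.062. PCN against atorvastatin gave Nr1i2 +15.0 kb -0.066. With DESeq2, atorvastatin against control came to Nr1i3 -9.5 kb -0.013. PCN against atorvastatin came to Nr1i2 +15.0 kb -0.0037. With RLE size factors, atorvastatin against control was Nr1i3 -9.5 kb -0.023. PCN against atorvastatin was Nr1i2 +15.0 kb -0.0056. With the replicate block, PCN against atorvastatin gave Nr1i3 0.014 and Rxra NM_011305 0.027.

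Leaving out each library in turn moved the log2 values across 0 as follows. For PCN against control these ranges were Nr1i2 -0.52 to 0.15, Nr1i2 +7.3 kb -0.036 to 0.73, Nr1i2 +6.9 kb -0.036 to 0.58, Nr1i3 -10.3 kb -0.086 to 0.52, Nr1i3 -9.3 kb -0.0013 to 0.69, Alas1 +14.4 kb -0.99 to 0.45, Alas1 +11.6 kb -0.11 to 0.088, Alas1 -15.6 kb -0.051 to 0.71, Alas1 -17.6 kb -0.0050 to 0.48 and ratio of Rxra NM_011305 over NM_001290482 -0.0028 to 0.65. For atorvastatin against control these ranges were Nr1i2 +8.0 kb -0.11 to 0.43, Nr1i2 +6.9 kb -0.34 to 0.27, Nr1i3 -10.3 kb -0.47 to 0.17, Nr1i3 -9.5 kb -0.049 to 0.22, Alas1 +14.4 kb -1.37 to 0.66, Alas1 -15.6 kb -0.30 to 0.45, Alas1 -17.6 kb -0.41 to 0.23 and Alas1 -19.3 kb -0.20 to 0.15. For PCN against atorvastatin these ranges were Nr1i3 -0.19 to 0.11, Rxra NM_011305 -0.19 to 0.12, Ncoa1 -0.14 to 0.017, Ncor1 NM_177229 -0.052 to 0.18, Por -0.074 to 0.18, Alas1 NM_020559 -0.27 to 0.031, Nr1i2 +15.0 kb -0.053 to 0.19, Alas1 +14.4 kb -0.45 to 0.65, Alas1 -15.6 kb -0.011 to 0.48, ratio of Rxra NM_011305 over NM_001290482 -0.18 to 0.079 and ratio of Rxra NM_011305 over NM_001290481 -0.21 to 0.049.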
